A study of Mus musculus with 35 samples.

Results

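The genes described here are the nuclear genes for subunits of respiratory complex I that the array annotation names Ndufa, Ndufb, Ndufc, Ndufs or Ndufv with a number. Each was taken from rows annotated to exactly 1 gene symbol, with the row of the highest mean kept where a gene had several, and the assembly factors (Ndufaf) were left out. That gave 35 genes of the 19938 measured: 14 Ndufa, 9 Ndufb, 2 Ndufc, 7 Ndufs and 3 Ndufv genes. Ndufb1 was not analysed here, and Ndufb4 lay only in 2 rows that it shares with Ndufb4b. No measured value chose these genes, but they were picked with earlier results of the same arrays known.

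RNA from the quadriceps, a large thigh muscle, of female mice aged 2 months was measured on 35 expression arrays in 2 experiments. The 4 classes were control mice, Mstn-null mice, which lack myostatin, and mice that had received ActRIIB-Fc in 1 dose or in 4. This agent joins the ligand-binding part of activin receptor type IIB to an antibody Fc part and binds myostatin and related ligands. Experiment 1 had 3 mice of each class, and experiment 2 had 8 Mstn-null mice and 5 mice of each other class. The strain, the allele, the amount per dose and what control mice received are not given in the sources used here; all 4 classes were female and of 1 age, each array came from its own mouse, and each experiment had its own controls.

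Complex I, the NADH:ubiquinone oxidoreductase, is the first enzyme of the mitochondrial respiratory chain. Its matrix arm takes electrons from NADH and passes them over flavin and iron-sulfur clusters to ubiquinone, and its membrane arm pumps protons. Core subunits carry out the reaction, accessory subunits surround them and are needed for assembly and stability, and slow and oxidative fast muscle fibres, being rich in mitochondria, hold more of the complex than glycolytic fibres. By textbook role, 15 of the 35 genes encode matrix arm and 18 membrane arm subunits, of which 6 are core and 27 accessory. The other 2 are Ndufa4, now counted as a subunit of cytochrome c oxidase, and its paralog Ndufa4l2.

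Promoter windows of 300 bases (250 before to 50 after the annotated start, RefSeq, mouse build GRCm38.p6) were matched for 31 of the 35 genes, all but Ndufa2, Ndufa4l2, Ndufb9 and Ndufs1. They were searched on both strands for the core letters of 4 factors known to act at nuclear genes of the respiratory chain. The YY1 string AAGATGGCG was in 5 of 31 members' windows (16.1%) and in 443 of the 27025 genes with a window (1.64%). All 5 lay on the gene's own strand, starting 23 to 36 bases after the start. They are shown because the same string sat at nearly the same place in genes of several letter groups, with the string in capitals:
Ndufa9, minus strand, chr6:126849096-126849125: attgtgggagAAGATGGCGgccgccgtccg
Ndufc1, minus strand, chr3:51408914-51408943: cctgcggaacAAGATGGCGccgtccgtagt
Ndufs4, minus strand, chr13:114388045-114388074: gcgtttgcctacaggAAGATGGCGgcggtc
Ndufs6, minus strand, chr13:73328433-73328462: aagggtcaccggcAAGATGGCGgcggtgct
Ndufs7, plus strand, chr10:80249463-80249492: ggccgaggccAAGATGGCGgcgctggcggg

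The NRF1 core CGCANGCG was in 9 of 31 members' windows (29.0%) and in 2492 of all (9.22%). The ETS core CCGGAAG, the letters of GABPA, was in 4 (12.9%) and in 2683 of all (9.93%), and the ERR string TGACCTTG was in 1, Ndufs5 (3.23%), and in 476 of all (1.76%). In all, 17 of 31 members (54.8%) and 19.8% of all genes had a match of any of the 4, and no match overlapped another motif's in the members' windows. A palindromic match was counted once. The window of Ndufs6, 1 of the genes with the largest change below, held an NRF1 match at base -15 and the YY1 match at base 34. A window of Ndufa5, which had the largest change, held an NRF1 match at base -25. The same match lay at base -189 in the window of another annotated Ndufa5 start. The Ndufs6 window and the Ndufa5 window with the match at base -25 are shown whole, with the matches in capitals:
Ndufs6, minus strand, chr13:73328433-73328732: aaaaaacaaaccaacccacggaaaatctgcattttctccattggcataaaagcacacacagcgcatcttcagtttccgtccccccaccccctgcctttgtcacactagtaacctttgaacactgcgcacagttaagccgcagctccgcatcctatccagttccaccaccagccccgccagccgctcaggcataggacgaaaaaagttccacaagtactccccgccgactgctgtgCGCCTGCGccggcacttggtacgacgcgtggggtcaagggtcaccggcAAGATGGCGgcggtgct
Ndufa5, minus strand, chr6:24527641-24527940: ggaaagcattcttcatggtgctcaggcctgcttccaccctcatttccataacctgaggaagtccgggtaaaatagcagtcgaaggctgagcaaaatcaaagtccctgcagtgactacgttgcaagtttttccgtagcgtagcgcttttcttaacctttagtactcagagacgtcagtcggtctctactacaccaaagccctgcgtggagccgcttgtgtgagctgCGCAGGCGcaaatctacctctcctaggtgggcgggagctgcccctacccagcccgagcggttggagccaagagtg
The matches describe letters in these windows and not binding. Genes with a match did not all change alike: Ndufa7 and Ndufa11, each with an NRF1 match, had no called change against control in any class, and Ndufb3, with a called fall in Mstn-null muscle, had no match of any of the 4.

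The deposited array values are on a log2 scale, with RMA named in the submitters' processing notes, so 1 unit is a 2-fold difference in signal; a change is the difference of class means from a limma fit of all 35 arrays with the experiment as a term, with its standard error (SE), and was called at a Benjamini-Hochberg adjusted p under 0.05 over all 19938 genes. Levels are given within an experiment, because array medians were 4.39 to 4.52 in experiment 1 and 6.06 to 6.27 in experiment 2. The targeted gene was checked first: Mstn was lower in the Mstn-null class by a log2 change of -2.30 ± 0.23 (limma adjusted p = 3.54e-08). Skeletal muscle markers were present on all arrays, the mean of 14 genes lying at 11.15 to 11.31 in experiment 1 and at 12.81 to 13.28 in experiment 2. Of the 14, 2 were called lower and 2 higher in Mstn-null against control. The Mstn-null arrays of experiment 2 spread most among themselves, with correlations between pairs of arrays down to 0.954, against a lowest of 0.993 among its controls, and array 6 of that group had the lowest mean of the complex I genes. All values are from bulk muscle, in which fewer fibres of a type and less RNA per fibre cannot be told apart.

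Complex I genes were lower in Mstn-null than in control quadriceps. Of the 35 genes, 29 fell and 0 rose, where 16.4% of all genes were called lower, and the median change of the 35 was -0.46 against 0.09 for all genes. All 9 Ndufb genes and both Ndufc genes fell, as did 10 of 14 Ndufa, 6 of 7 Ndufs and 2 of 3 Ndufv genes. Median changes were -0.39 for Ndufa, -0.47 for Ndufb, -0.82 for Ndufc, -0.80 for Ndufs and -0.39 for Ndufv. By place in the complex, 17 of 18 membrane arm genes (median -0.46) and 11 of 15 matrix arm genes (median -0.42) were called lower, and by kind 5 of 6 core genes (median -0.34) and 23 of 27 accessory genes (median -0.47). Without array 6 of experiment 2, 27 genes were called. The genes are nearly all strongly expressed: 29 lay in the brightest of 10 bins of genes, of which 43.6% were called lower with a median of -0.19, and 26 of those 29 were called lower with a median of -0.46. Among the 35 genes, mean level and change were nearly unrelated (Pearson r = -0.08, Spearman rho = -0.04, over genes that share arrays and are not independent).

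**Figure D1:**
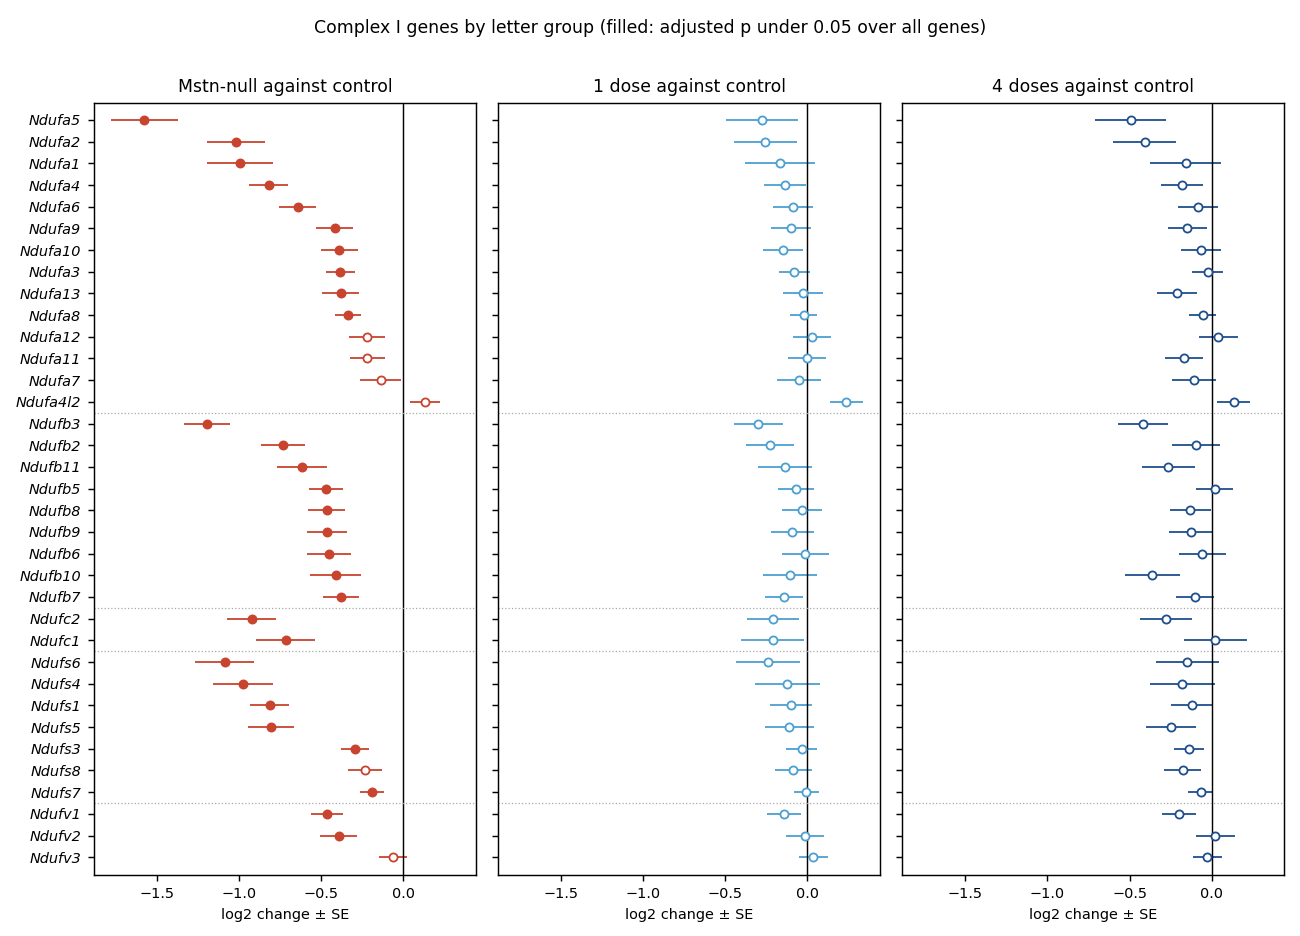
Log2 change (x axis, points with SE) of each complex I gene against control in Mstn-null mice and after 1 dose or 4 doses of ActRIIB-Fc, from the fit of all 35 arrays; filled points had an adjusted p under 0.05 and dotted lines separate the letter groups. In the Mstn-null panel 29 points are filled, from Ndufa5 at -1.58 to Ndufs7 at -0.19, and in the other panels none.

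Among the matrix arm genes, Ndufa5, an accessory subunit near the ubiquinone end of that arm, had the largest change. Its values were 8.48, 8.51 and 8.80 in the controls of experiment 1 and 6.83, 7.23 and 7.40 in Mstn-null mice. In experiment 2 its control values were 9.99, 10.02, 10.03, 10.04 and 10.13, and the Mstn-null values had a lowest of 7.30, a median of 8.45 and a highest of 9.71. Every Mstn-null array was below every control array in both experiments. The change of -1.58 ± 0.20 was 2.98-fold (limma adjusted p = 1.25e-06). With 1 dose its values were 8.30, 8.53 and 8.66 in experiment 1 and 9.40, 9.53, 9.56, 9.88 and 9.96 in experiment 2, and with 4 doses they were 7.38, 7.63 and 7.93, and then 9.70, 9.74, 9.83, 9.84 and 10.02. The 4-dose arrays of experiment 1 and the 1-dose arrays of experiment 2 all lay below their controls, while the other dosed groups overlapped theirs.

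Ndufs1 encodes the large core subunit that carries several iron-sulfur clusters. Its control values were 9.30, 9.41 and 9.59 in experiment 1 and 11.61, 11.63, 11.73, 11.76 and 11.76 in experiment 2. In Mstn-null mice they were 8.90, 8.94 and 8.95, and in experiment 2 the lowest was 10.10, the median 10.71 and the highest 11.44. The classes did not overlap in either experiment, and the change was -0.81 ± 0.12 (limma adjusted p = 7.96e-06). The dosed groups overlapped the controls, with 1-dose values of 9.30, 9.57 and 9.65 in experiment 1 and 11.28, 11.48, 11.48, 11.59 and 11.64 in experiment 2. With 4 doses the values were 8.93, 9.30 and 9.62, and then 11.41, 11.56, 11.62, 11.70 and 11.71. Other core genes moved less. Ndufv1, which encodes the subunit that binds NADH and the flavin, had control values of 9.38, 9.43 and 9.44 in experiment 1 and 10.50, 10.55, 10.67, 10.69 and 10.84 in experiment 2. Its Mstn-null values were 8.64, 9.01 and 9.07, and in experiment 2 they had a lowest of 9.50, a median of 10.32 and a highest of 10.54. The classes were apart in experiment 1 and overlapped in experiment 2, and the change was -0.46 ± 0.10 (limma adjusted p = 0.000409). Ndufv1 in 1-dose mice read 8.90, 9.27 and 9.32, and in experiment 2 10.30, 10.48, 10.64, 10.72 and 10.72; in 4-dose mice it read 9.08, 9.17 and 9.29, and then 10.36, 10.41, 10.44, 10.54 and 10.60. In experiment 1 the dosed arrays were thus all below the controls, and in experiment 2 they overlapped them.

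Ndufs8, a core iron-sulfur subunit close to ubiquinone, was the Ndufs gene with the largest p. Its control values were 8.17, 8.37 and 8.50 in experiment 1 and 9.73, 9.85, 10.09, 10.16 and 10.17 in experiment 2. Mstn-null values were 7.60, 8.19 and 8.24, and in experiment 2 had a lowest of 9.32, a median of 9.82 and a highest of 10.11. The groups overlapped in both experiments, and the change of -0.23 ± 0.10 did not pass (limma adjusted p = 0.0668). Ndufs8 was called when any of 5 single arrays was left out (limma adjusted p from 0.0324 to 0.0499). It was also called with each array centred on its median (-0.33, limma adjusted p = 0.0189). Its dosed arrays read 7.73, 7.97 and 8.13 after 1 dose and 7.89, 7.90 and 8.31 after 4 doses in experiment 1, and in experiment 2 9.86, 9.86, 10.21, 10.25 and 10.32 after 1 dose and 9.81, 9.85, 9.87, 9.95 and 10.04 after 4 doses. Only the 1-dose arrays of experiment 1 were all below their controls. Ndufv3, a small accessory subunit of the NADH-oxidising module, showed the smallest change of the Ndufv genes, -0.06 ± 0.08 (limma adjusted p = 0.546). Its control values of 6.47, 6.53 and 6.62 and Mstn-null values of 6.24, 6.74 and 6.77 in experiment 1 overlapped, as did 7.51, 7.52, 7.54, 7.70 and 7.71 in controls and a lowest of 7.09, median of 7.51 and highest of 7.75 in Mstn-null mice in experiment 2. Ndufv3 after 1 dose read 6.41, 6.56 and 6.69, and 7.43, 7.47, 7.63, 7.79 and 7.89 in experiment 2; after 4 doses it read 6.55, 6.62 and 6.84, and 7.31, 7.34, 7.53, 7.56 and 7.63. These overlapped the controls throughout.

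Ndufa7, an accessory subunit of the matrix arm, had a change of -0.64 ± 0.25 in experiment 1 and 0.12 ± 0.10 in experiment 2, neither called. Its control values were 6.15, 6.67 and 6.92 in experiment 1 against 5.63, 6.02 and 6.18 in Mstn-null mice, and in experiment 2 they were 7.46, 7.81, 7.83, 7.87 and 7.95 against a lowest of 7.53, a median of 7.92 and a highest of 8.17. The groups overlapped in both, and the pooled change was -0.14 ± 0.12 (limma adjusted p = 0.374). Its dosed arrays overlapped the controls too, with 5.72, 5.92 and 6.75 and 7.60, 7.87, 8.04, 8.09 and 8.25 after 1 dose, and 6.09, 6.19 and 6.27 and 7.69, 7.83, 7.84, 7.92 and 7.95 after 4 doses, experiment 1 first. Of the other matrix arm genes, Ndufs6, a zinc-binding accessory subunit, changed by -1.09 ± 0.18, Ndufa2, a thioredoxin-fold subunit, by -1.02 ± 0.18, and Ndufs4, a late-assembled subunit whose loss in mice gives a Leigh-like disease, by -0.97 ± 0.18. The core gene Ndufs7 had the smallest called change, -0.19 ± 0.07 (limma adjusted p = 0.0349), which turned to 0.034 by quantile normalisation (limma adjusted p = 0.661). Ndufa12, with -0.22 ± 0.11, was the remaining matrix arm gene without a call (limma adjusted p = 0.0971).

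In the membrane arm, Ndufb3, a small accessory subunit, had the smallest p of all 35 genes. Its control values were 6.83, 7.36 and 7.40 in experiment 1 and 8.40, 8.43, 8.45, 8.50 and 8.57 in experiment 2. Mstn-null values were 5.45, 5.75 and 6.03, and in experiment 2 had a lowest of 6.47, a median of 7.45 and a highest of 8.11. No Mstn-null array reached a control array in either experiment, and the change of -1.19 ± 0.14 was 2.29-fold (limma adjusted p = 3.11e-07). After 1 dose the values were 6.74, 6.95 and 7.05 in experiment 1 and 7.91, 7.94, 8.14, 8.33 and 8.47 in experiment 2, and after 4 doses 6.17, 6.25 and 7.03, and then 7.99, 8.21, 8.22, 8.34 and 8.37. In experiment 2 the 4-dose arrays were all just below the controls, and the other dosed groups overlapped them. Ndufb3, Ndufs1 and Ndufa10 lie on the same chromosome as Mstn in RefSeq, with 41, 72 and 306 protein-coding genes between each and Mstn; what the region next to the altered Mstn gene adds to their values was not tested.

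Ndufb10, which faces the intermembrane space in the distal membrane arm, had the largest p of the Ndufb genes. Its control values were 7.67, 8.40 and 8.63 in experiment 1, above the 6.62, 7.53 and 7.61 of Mstn-null mice. In experiment 2 the control values of 8.07, 8.08, 8.16, 8.23 and 8.39 lay within the Mstn-null range of 7.60 to 8.47, median 8.09. The pooled change of -0.41 ± 0.16 was called (limma adjusted p = 0.0331) and lost its call when any of 5 single arrays was left out. These were control arrays 2 and 3 and Mstn-null array 1 of experiment 1, and Mstn-null arrays 6 and 7 of experiment 2, with limma adjusted p from 0.0543 to 0.0889. It was also lost by quantile normalisation (-0.26, limma adjusted p = 0.250), with the interquartile range as a covariate (-0.35, limma adjusted p = 0.370), in a fit of only the 2 classes (-0.40, limma adjusted p = 0.0650) and with the replicate number as a block (-0.34, limma adjusted p = 0.0637). Ndufb10 after 1 dose read 7.09, 7.68 and 8.30, and 7.99, 8.34, 8.41, 8.46 and 8.52; after 4 doses it read 7.24, 7.46 and 7.81, and 7.85, 7.92, 8.08, 8.19 and 8.20, experiment 1 first, all groups overlapping their controls.

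The Ndufc genes encode small membrane-spanning accessory subunits, and both fell. Ndufc2 had control values of 9.25, 9.68 and 9.86 and Mstn-null values of 8.47, 8.60 and 8.72 in experiment 1, with no overlap. In experiment 2 the controls were 11.46, 11.52, 11.55, 11.69 and 11.74, and the Mstn-null arrays had a lowest of 10.17, a median of 10.62 and a highest of 11.52, which overlaps the controls at 1 array. The change was -0.92 ± 0.15 (limma adjusted p = 2.74e-05). Its 1-dose values were 9.11, 9.11 and 9.71, and 11.21, 11.34, 11.35, 11.58 and 11.65; its 4-dose values were 8.30, 8.83 and 9.27, and 11.50, 11.57, 11.60, 11.66 and 11.80, all overlapping the controls. Ndufc1 stood out by experiment: in experiment 1 controls of 8.57, 8.64 and 8.65 overlapped Mstn-null values of 8.25, 8.55 and 8.61. In experiment 2 controls of 10.47, 10.49, 10.52, 10.58 and 10.59 were all above the Mstn-null arrays, whose lowest was 8.86, median 9.65 and highest 10.41. The pooled change was -0.72 ± 0.18 (limma adjusted p = 0.00235). Ndufc1 after 1 dose read 8.14, 8.27 and 8.89, and 9.80, 10.30, 10.41, 10.50 and 10.51; after 4 doses it read 8.12, 8.40 and 9.17, and 10.48, 10.56, 10.57, 10.68 and 10.70, overlapping the controls in both.

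**Figure D2:**
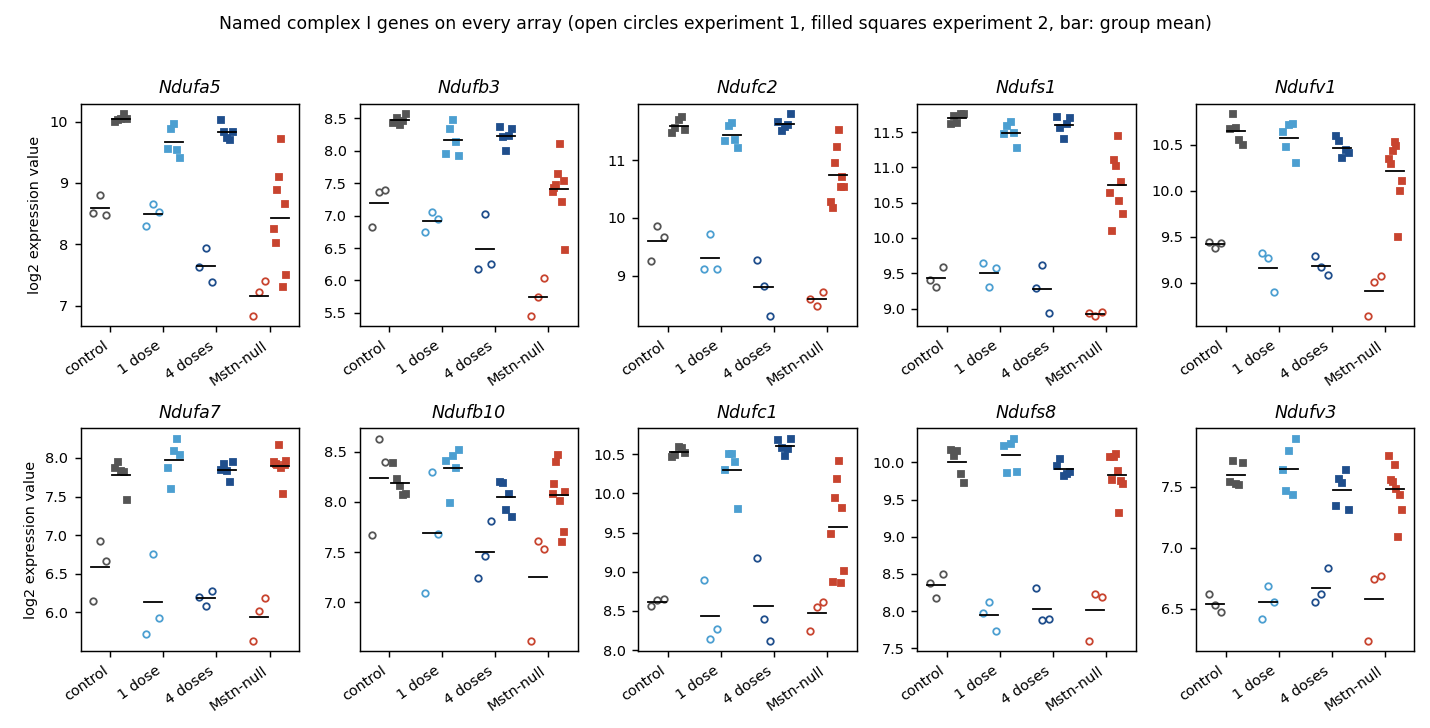
Log2 expression value (y axis) of 10 complex I genes on every array, by class (x axis); open circles are experiment 1, filled squares experiment 2, and bars are group means. The upper row holds the gene with the smallest p of each letter group in Mstn-null against control, and the lower row the one with the largest, where only Ndufc1 and Ndufb10 were called lower.

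Of the membrane arm genes not shown singly, Ndufa1, a small subunit needed for assembly, changed by -0.997 ± 0.20 and Ndufs5, which faces the intermembrane space, by -0.80 ± 0.14. The rest that were called ranged from -0.73 for Ndufb2 to -0.34 for Ndufa8. Ndufa11 was the membrane arm gene without a call, at -0.22 ± 0.11 (limma adjusted p = 0.0988). Among the 2 genes no longer counted to complex I, Ndufa4 fell by 0.82 on the log2 scale and Ndufa4l2, its hypoxia-inducible paralog, was the one gene of the 35 with a positive change, 0.13 ± 0.09 (limma adjusted p = 0.247). Both rows gave the same call for the 4 genes that had a second row: Ndufs3 with -0.28 and -0.29, Ndufc1 with -0.57 and -0.72, and Ndufb11 with -0.64 and -0.62 were called on both rows, and Ndufa11 was called on neither. The 2 rows shared by Ndufb4 and Ndufb4b had -0.24 each (limma adjusted p = 0.139 and 0.129), and a row that Ndufs5 shares with its pseudogene had -1.01.

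Within experiment 1, 5 genes passed in Mstn-null against control, where 1.99% of all genes were called lower: Ndufa4 (-0.69), Ndufa5 (-1.44), Ndufb3 (-1.45), Ndufc2 (-1.002) and Ndufs5 (-0.79), with a median of -0.51 over the 35. Leaving out 1 array changed that count to between 1 and 6; it was 1 without control array 3 or Mstn-null array 1, 2 without control array 1 or 2 or Mstn-null array 2, and 3 without 1-dose array 1 or 3. Within experiment 2, 26 genes passed, where 16.6% of all genes were called lower, with a median of -0.49 against 0.11 for all genes: 10 of 14 Ndufa, 7 of 9 Ndufb, 2 of 2 Ndufc, 5 of 7 Ndufs and 2 of 3 Ndufv genes. Every Mstn-null array was below every control array for 20 genes in experiment 1 (13.9% of all genes) and for 11 in experiment 2 (5.52%). Ndufa2, Ndufa5, Ndufa6, Ndufb3, Ndufs1, Ndufs4 and Ndufs6 were apart in both, 7 of 35, against 512 of 19938 genes.

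The test of the difference between experiments called none of the 35 genes for Mstn-null against control, where 1.68% of all genes were called in either direction. At an unadjusted p under 0.05 there were 6. Ndufa7, Ndufa11, Ndufa13 and Ndufb10 were lower against control in experiment 1 than in experiment 2, by 0.76, 0.45, 0.59 and 0.87, and Ndufc1 and Ndufv2 showed differences of -0.81 and -0.63 the other way (limma adjusted p from 0.0629 to 0.226). Ndufv2, a core subunit of the NADH-oxidising module, had changes of 0.05 in experiment 1 and -0.58 in experiment 2.

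**Figure D3:**
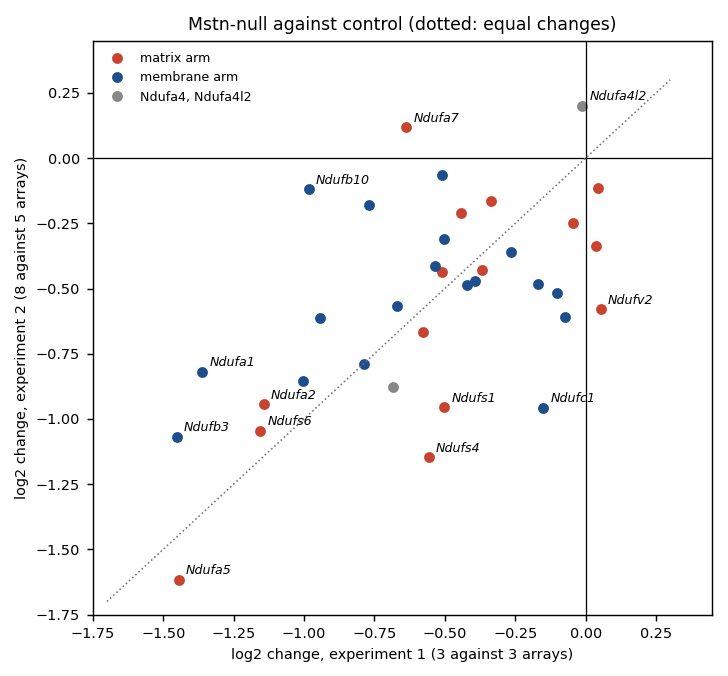
Log2 change of each complex I gene in Mstn-null against control mice in experiment 1 (x axis) and experiment 2 (y axis), from fits within each experiment; colours give the arm and the dotted line marks equal changes. Ndufa5 and Ndufb3 lie far below 0 in both, Ndufb10 and Ndufa7 nearer to 0 in experiment 2, and Ndufc1 and Ndufv2 nearer to 0 in experiment 1.

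The genes moved together from mouse to mouse. Over all 35 arrays, with each group's mean taken out, the median correlation of 595 gene pairs was 0.60, with 10th and 90th percentiles of 0.22 and 0.80; the points share arrays and their scaling. No value for other genes, such as equally bright ones, is given here. Whether this correlation is particular to complex I genes was not tested. Ndufb8, Ndufs6 and Ndufb9 followed the mean of the other members most closely (r = 0.91 each) and Ndufa4l2 (0.22), Ndufv3 (0.41), Ndufb10 (0.47) and Ndufa7 (0.49) least. The mean of the 35 genes differed from the control mean by -0.90, -0.45 and -0.32 on the Mstn-null arrays of experiment 1. In experiment 2 it ran from -1.10 on array 6 to -0.09 on array 5, with an SD of 0.35 (n = 8) against 0.07 (n = 5) in controls. On array 5, 29 of the 35 genes were below their control mean, fewer than the 31 on control array 5 of that experiment.

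The spread of values on an array moved with this. The interquartile range over all genes was 2.28 ± 0.12 (SD, n = 8) in Mstn-null mice and 2.56 ± 0.06 (SD, n = 5) in controls of experiment 2, and 2.42 ± 0.03 and 2.62 ± 0.14 (SD, n = 3 each) in experiment 1. Mstn-null array 6 of experiment 2 had both the narrowest range (2.14) and the lowest complex I mean. Arrays 7 and 8 of that group had the next narrowest ranges (2.15 and 2.19), with complex I differences from the control mean of -0.53 and -0.77. Array 2 of that group, with a range of 2.22, was lower than these at -0.84. With the arrays quantile-normalised within each experiment, 16 of the 35 genes were called lower, and with the interquartile range as a covariate 5 were: Ndufa4, Ndufa5, Ndufb3, Ndufs1 and Ndufs6, in a fit that called 271 of all genes lower. Centring every array on its own median gave 32, and the split of all calls went from 3275 lower and 5062 higher to 4189 lower and 1905 higher. The part of the narrower range in the fall of these genes was not tested beyond those fits.

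**Figure D4:**
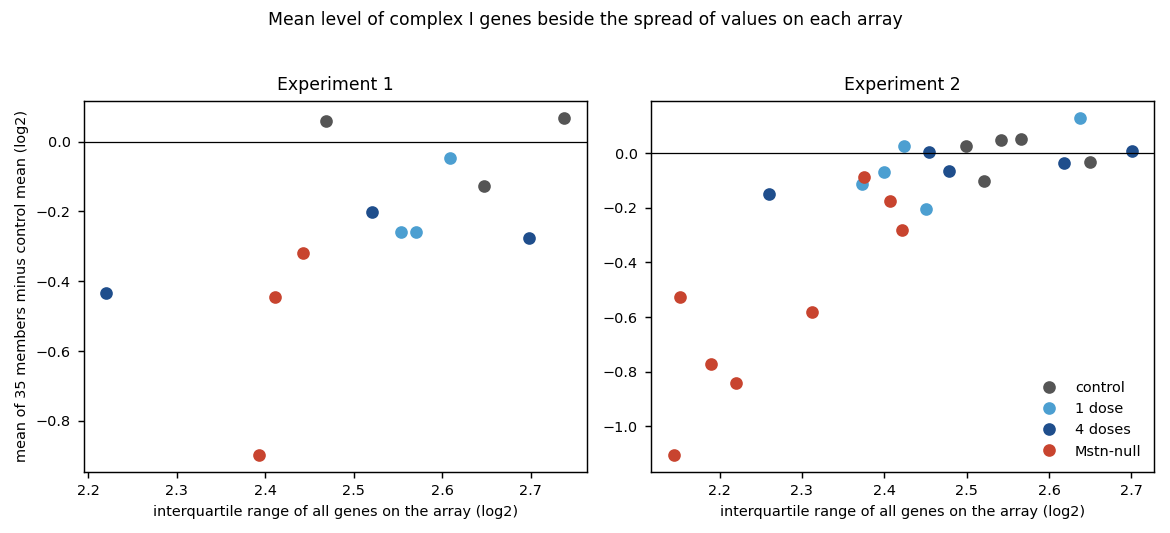
Mean of the 35 complex I genes on each array, as a log2 difference from the control mean of its experiment (y axis), beside the interquartile range of all genes on that array (x axis); each point is 1 array and colours give the class. The lowest point of each experiment is a Mstn-null array, at -0.90 and at -1.10, while Mstn-null arrays 4 and 5 of experiment 2, at -0.17 and -0.09, lie among dosed and control arrays; the 4-dose array with the narrowest range in each experiment has the lowest mean of its class, -0.43 and -0.15.

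After 1 dose of ActRIIB-Fc, none of the 35 genes was called against control, where 0.572% of all genes were called lower; 1 had an unadjusted p under 0.05 and limma was the tool run. The median change was -0.10 against 0.02 for all genes, and 32 of 35 changes were negative. Letter group counts were 0 in every group. Ndufa4l2 was the gene with that p, at 0.24 ± 0.10 (limma adjusted p = 0.323). Ndufb3, at -0.30 ± 0.15, and Ndufa5, at -0.28 ± 0.22, had the largest negative changes (limma adjusted p = 0.428 and 0.647). Within the experiments the counts were also 0, against 0.0201% and 0.522% of all genes called lower, with medians of -0.18 in experiment 1 and -0.05 in experiment 2; 1 gene had an unadjusted p under 0.05 in each.

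After 4 doses, again none of the 35 was called, where 1.23% of all genes were called lower, and the median was -0.13 with 30 negative changes. Ndufa2, Ndufa5, Ndufb3 and Ndufb10 had an unadjusted p under 0.05, with changes of -0.41 ± 0.19, -0.49 ± 0.22, -0.42 ± 0.15 and -0.36 ± 0.17 (limma adjusted p from 0.140 to 0.310). In a fit of only the 4-dose and control arrays 3 genes were called. In experiment 1 alone Ndufa5 was called lower, at -0.95 ± 0.17 (limma adjusted p = 0.0419), where 0.171% of all genes were called lower; the median of the 35 was -0.30. That single call was lost in 9 of the fits that left out 1 array of experiment 1 (control arrays 1, 2 and 3, 4-dose arrays 1 and 3, Mstn-null arrays 2 and 3, and 1-dose arrays 1 and 3), and 2 genes were called without 4-dose array 2. In experiment 2 the count was 0, where 0.873% of all genes were called lower, with a median of -0.05 and 0 genes at an unadjusted p under 0.05. A difference between experiments in the change with 1 dose or with 4 doses was called by limma for 0 of the 35 genes, with 4 and 2 genes at an unadjusted p under 0.05. Between 4 doses and 1 dose 0 genes were called and 0 had an unadjusted p under 0.05, where 0.276% of all genes were called higher; the median difference was -0.06.

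Set directly against Mstn-null mice, complex I genes were higher in dosed mice. After 1 dose, 25 of 35 were called higher, where 10.9% of all genes were, with a median difference of 0.38, and after 4 doses 22 were, where 11.4% of all genes were, with a median of 0.35. These comparisons use the same Mstn-null arrays as those above. After 1 dose the 25 were 9 Ndufa, 7 Ndufb, 2 Ndufc, 5 Ndufs and 2 Ndufv genes, and after 4 doses the 22 were 8, 6, 2, 4 and 2 in that order. Ndufa5 differed most, by 1.30 ± 0.20 after 1 dose (limma adjusted p = 6.41e-05) and 1.08 ± 0.20 after 4 doses (limma adjusted p = 0.000553). Ndufa7, Ndufb10, Ndufs8 and Ndufv3 passed in neither. By quantile normalisation the counts were 13 and 13, and with the interquartile range as a covariate 4 and 5. The shares of all genes called higher under those settings are not given here.

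Other genes of complex I and of the chain were read for Mstn-null against control from lists made with earlier results known. Of 16 assembly factors, which build the complex and are not part of it, 11 fell and 0 rose (median -0.59), with Tmem126b at -1.11 and Ndufaf1 at -0.88. Ndufab1, the acyl carrier protein bound to LYR subunits such as Ndufa6 and Ndufb9, fell by 0.67 on the log2 scale. The one measured subunit encoded in mitochondrial DNA, ND3, had -0.21 (limma adjusted p = 0.0606). In the other complexes, 4 of 4 complex II genes (median -0.56), 8 of 9 complex III genes (-0.80), 9 of 12 complex IV genes (-0.59) and 12 of 15 ATP synthase genes (-0.50) fell and 0 rose. The complex I median of -0.46 was smaller in size than each of these, and no test between them was made. Beside all these counts, 16.4% of all genes and 43.6% of the brightest of 10 bins of genes were called lower. The lists were not set against genes of like level.

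Among 15 regulators of mitochondrial genes, 7 fell and 0 rose in Mstn-null against control, where 16.4% of all genes were called lower. Tfam, which packages and transcribes mitochondrial DNA, had -1.11, the transcription factor gene Tfb2m -0.86, Esrrg, for an oestrogen-related receptor, -0.75, Ppara -0.73 and Gabpa, whose letters were searched above, -0.52. Nrf1 and Yy1 had -0.04 each (limma adjusted p = 0.606 and 0.570), and the coactivator gene Ppargc1a had -0.27 (limma adjusted p = 0.0939) and Esrra -0.26 (limma adjusted p = 0.0738). Against control, 1 of the 15 regulators was called lower after 1 dose, where 0.572% of all genes were. After 4 doses 3 of the 15 were called lower, where 1.23% of all genes were.

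In the fit of both experiments together, markers of slow fibres were lower in Mstn-null mice and after 4 doses, where no complex I gene was called. Of 11 slow fibre genes, 10 fell in Mstn-null mice (median -2.02), 0 after 1 dose (median -0.89) and 9 after 4 doses (median -1.48). Complex I medians were -0.46, -0.10 and -0.13, and 16.4%, 0.572% and 1.23% of all genes were called lower. Within experiments 1 and 2, 0 of the 11 were called after 4 doses (medians -1.65 and -1.41, smallest limma adjusted p = 0.123 and 0.0983). In experiment 1 alone, the complex I gene Ndufa5 was called lower after 4 doses. In Mstn-null mice the slow myosin gene Myh7 had -2.42 and Myl2 -3.03. The mean level of the 11 slow fibre genes was 7.34 to 8.87 in controls and 5.65 to 6.80 in Mstn-null mice in experiment 1, and 9.61 to 10.21 and 6.77 to 9.14 in experiment 2. It was 7.66 to 10.13 after 1 dose and 7.61 to 9.32 after 4 doses in experiment 2. Mb, the myoglobin gene, fell by 1.66 and Myh2, the myosin gene of oxidative fast fibres, by 1.30 on the log2 scale, while the glycolytic fast myosin gene Myh4 had 0.08 (limma adjusted p = 0.101). Of the 5 fast fibre myosin genes, 2 were called lower and 0 higher in Mstn-null mice, and 0 lower and 2 higher after 4 doses. Of the 14 skeletal muscle markers, 1 was called lower and 1 higher after 4 doses, the lowest change being -0.94. For other cell types, 1 of 8 adipocyte genes (Fabp4) and 3 of 8 endothelial genes fell in Mstn-null mice, where 16.4% of all genes were called lower, and 5 of 9 macrophage genes rose, where 5062 of 19938 genes were called higher. After 4 doses 6 of 9 macrophage genes rose, where 380 of 19938 genes were called higher, and 0 adipocyte or endothelial genes were called. Within experiment 1, 0 of the 9 macrophage genes were called after 4 doses, and within experiment 2, 6 were called higher. In experiment 1, 0 macrophage genes were called in Mstn-null mice, their mean level being 4.58 to 5.25 in controls and 4.75 to 5.03 in Mstn-null mice. The mean level of the macrophage genes was 6.40 to 6.76 in controls and 6.69 to 7.43 in Mstn-null mice in experiment 2. The adipocyte genes had mean levels of 6.87 to 8.21 and 6.25 to 7.73 in those groups, and the endothelial genes 8.08 to 8.17 and 7.43 to 8.23. The part of fibre types or other cells in the fall of complex I genes was not tested.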

How the data were processed

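The authors' deposited table holds log2 values. Per the submitters' processing notes, RMA, limma 3.4.4 and R 2.11.1 were used, with roles not stated; base 2 was read from the range of the values (highest 14.7). Whether the experiments were normalised together and the genome build of the probes are not given in the sources used here. Of 35556 rows, 21789 had 1 gene symbol, 1621 several and 12146 none; the row with the highest mean was kept for each of 19938 genes, with no filter on dim genes.

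Changes came from limma 3.58.1 in R 4.3.3 (lmFit, eBayes, two-sided) on the 35 arrays together, with terms for class and for experiment, from fits within each experiment and from a fit of 8 group means for differences between experiments. Benjamini-Hochberg adjustment ran over all genes, and adjusted p under 0.05 was called. The fits were tested on simulated data. The number of arrays limits the precision, and dim signal was not judged against background. The labels call the samples biological replicates.

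The 35 genes and the lists were chosen with earlier results of these data known. Of the 35, the gene with the smallest and the one with the largest p in each letter group are given on every array; others are named for the largest, smallest or opposite changes. Alternatives were array centring, quantile normalisation, the interquartile range as a covariate, fits of 2 classes only, leaving out dim genes, the mean of a gene's rows, the replicate number as a block and leaving out each array. Promoters are RefSeq windows on GRCm38.p6.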

Additional observations from a re-analysis of the deposited data

Results flagged for a closer look

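In the groups of 5 or 8 arrays of experiment 2, the 35 genes and their mean were tested in each group, 144 tests in all, and in 11 of them, all single genes, 1 array lay far from the others, its gap to the nearest array being large for the range of its group; chance flags about 1 in 20. Among controls, Ndufa7 read 7.46 and Ndufa13 8.81 on array 5, both low, and Ndufa10 read 11.48 on array 3, high. On Mstn-null array 6, Ndufa7 at 7.53 and Ndufa11 at 9.03 were low. After 1 dose, array 5 was low for Ndufa9 at 10.21 and Ndufb11 at 9.65, array 2 was low for Ndufa11 at 9.42, and array 3 was high for Ndufb5 at 11.32. After 4 doses, array 1 was high for Ndufa1 at 9.27 and array 2 for Ndufs5 at 10.46. Of these, Mstn-null array 6 also had the lowest mean of the 35 genes.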

How the results depend on the processing

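Mstn-null against control called 29 genes. Quantile normalisation within each experiment gave 16, the interquartile range of each array as a covariate 5, median centring 32 and the replicate block 24. Shared calls were 16, 5, 29 and 24. Replicate numbers 6, 7 and 8 occur only on Mstn-null arrays of experiment 2, so the block fit takes nothing from those arrays for the change. The complex I means of those arrays differed from the control mean by -1.10, -0.53 and -0.77. In experiment 1, 5 calls became 3 by centring, 3 by quantile, 1 with the covariate, 9 with the replicate block and 1 to 6 without single arrays, and the 1 call for 4 doses became 0, 0 and 0 under the first 3 and 0 to 2 without single arrays. In experiment 2, 26 became 16 by quantile (15 lower, 1 higher) and 0 with the covariate. For 1 dose against Mstn-null, 25 became 13, 4, 15 with only the classes compared and 13 with the replicate block, and for 4 doses against Mstn-null 22 became 13, 5 and, with the replicate block, 12. For 4 doses against control, only the classes compared gave 3, and the difference between experiments for Mstn-null gave 3 with the replicate block and 0 to 1 without single arrays (1 without control array 1 or 1-dose array 2 of experiment 1, or Mstn-null array 5 or 7 of experiment 2). Ndufs8 turned to 0.013 by quantile and Ndufv3 to 0.032 by quantile and 0.020 with the replicate block, none of them called. By quantile Ndufs7 (called before), Ndufa11 and Ndufa12 turned too, to 0.034, 0.0013 and 0.012, uncalled. Median centring added calls for Ndufa11, Ndufa12 and Ndufs8 (limma adjusted p = 0.0305, 0.0351 and 0.0189). Ndufs7 lost its call with the covariate (-0.015) and the block (-0.13, limma adjusted p = 0.187), and the block also ended the calls of Ndufa13, Ndufb6, Ndufb10 and Ndufs3. The cause was not tested. Replicate numbers are not stated to pair mice: same-numbered arrays of different classes had correlations of deviations from -0.53 to 0.41 in experiment 1 and -0.60 to 0.38 in experiment 2, with 7 of 18 and 11 of 30 over 0.1. Among differently numbered arrays of different classes, 15 of 36 and 42 of 165 were over 0.1. Median correlations were 0.017 and -0.0030 for same numbers, and -0.041 and -0.0059 for different numbers. Ndufc1, Ndufc2 and Ndufv1 lost their calls with the covariate, with changes of -0.34, -0.58 and -0.28. Leaving out single arrays moved the 29 calls to between 27 and 31. Signal over background, which could limit dim genes such as Ndufa4l2, was not analysed here.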
